A study of Mus musculus with 23 samples.

Results

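The genes described here are 38 genes of glucose breakdown, the tricarboxylic acid (TCA) cycle and the hypoxia response, out of 15161 genes with a symbol on the array. They were chosen by name: 14 of glucose uptake and glycolysis, 5 of the pyruvate dehydrogenase complex and its kinase, 9 of the TCA cycle and 10 that are induced by low oxygen or control that response. Each gene was read by 1 probe, the one with the highest mean over the 23 arrays. All 38 passed the filter on dim probes and were tested together with the other genes, 9849 in all.

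The study hybridised total RNA of 2 mouse striatal cell lines to Illumina bead arrays to ask what inhibition of the enzyme transglutaminase 2 does in a cell model of Huntington disease. The line Q7 carries wild-type huntingtin and the line Q111 carries huntingtin with an expanded glutamine repeat. Cells of each line were left as control or were given 1 of 3 compounds for 12 h: 50 µM ZDON, the same concentration of Boc-DON, or cystamine, whose concentration was 250 µM. Each of the 8 groups held 3 arrays, except Boc-DON in Q7 with 2, since the third array had failed the submitters' quality check.

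Several features of the samples limit what a difference stands for. Each genotype is 1 cell line, so the repeat length and any other difference between the lines cannot be told apart. The labels give the controls no vehicle and no time, so compound, vehicle and time cannot be told apart either. Nothing in the labels says that the replicates came from separate cultures, so a p-value sets a difference against a spread among arrays that may be technical. Replicates with the same number lay on the same BeadChip (the glass slide that carries several arrays), and BeadChip was a term in every fit. The arrays measure bulk RNA, in which fewer cells of a type and less RNA per cell cannot be told apart.

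The striatal label was set against marker genes. Of 12 markers of striatal projection neurons, 6 passed the filter, and Pde10a alone was above the array median on all 23 arrays. Gad1, Gad2, Bcl11b and Rgs9 did not pass, and Adora2a and Penk had no probe with that symbol. Of 6 neural progenitor markers 4 passed, and Nes, Sox2 and Vim were above the median on every array. Of 6 fibroblast and mesenchymal markers 4 passed the filter, Thy1 and Lum did not, and the mean log2 level of the 4 ran from 7.06 to 7.61 in Q7 and from 7.73 to 8.96 in Q111. All 4, Col1a1, Col1a2, Col3a1 and Pdgfra, were higher in Q111 over the 4 arms (adjusted p from 3.45e-08 to 0.00269), though in Q7 Col3a1 was above the array median on 3 of 11 arrays and Pdgfra on 0 of 11. The other lists differed between the lines too. Over the 4 arms the homeobox gene Dlx2, 1 of the 4 progenitor markers, was higher in Q111 (1.69, adjusted p = 6.87e-10), and it was above the array median on 12 of 12 Q111 arrays and 0 of 11 Q7 arrays. Of 5 neuronal markers 3 passed the filter, Snap25 did not, and Rbfox3 had no probe with that symbol. Of the 3, Map2 (0.19, adjusted p = 0.0264) and Syn1 (0.20, 0.0121) were higher in Q111. Without the BeadChip term Map2 lost its call (0.103) and Syn1 kept it (0.0433). Of the 6 striatal markers Pde10a was lower (-0.91, 4.71e-08). Of 5 astrocyte markers 2 passed the filter, and Gfap, Aqp4 and S100b did not. Of the 2, Slc1a3, a glutamate transporter, was higher in Q111 (0.29, adjusted p = 0.0188). Slc1a3 also fell over both lines under cystamine, by 0.81 (adjusted p = 0.000147), and under Boc-DON, by 0.52 (0.0219), and these 3 calls were lost without the BeadChip term (0.795, 0.434 and 0.862). The part of these differences in the results below was not tested.

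Glycolysis splits glucose into pyruvate in the cytosol, and the pyruvate dehydrogenase complex passes the pyruvate into the TCA cycle of the mitochondria as acetyl-CoA. Pyruvate dehydrogenase kinases phosphorylate the complex and shut it down, and lactate dehydrogenase then takes the pyruvate. When oxygen falls, the hypoxia-inducible factors (HIF) escape the prolyl hydroxylases that mark them for destruction, and they raise glucose transporters, glycolytic enzymes, pyruvate dehydrogenase kinase and vascular growth factors. HIF binds short DNA motifs with the core letters ACGTG or GCGTG.

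Most of these genes were well measured. Levels are log2 intensities after background correction and quantile normalization, so a difference of 1 is a doubling, and levels of different probes cannot be set against each other. In their rank on each array, 34 of the 38 probes lay above the array median on all 23 arrays, and those of Tpi1, Pgk1, Pkm and Ldha lay at a mean percentile of 99.4 or higher. The dim ones were Adm, above the median on 4 arrays, Egln3 on 5, Aldoc on 12 and Car9 on 17. The 4 arrays on which the Adm probe exceeded the median were all from Q111, so Adm entered the test through the line in which it is higher. The SD over the 23 arrays had a median of 0.19 among the 38 genes, and 0.19 among all genes.

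Promoter windows were available for 35 of the 38 genes, all but Ndrg1, Bnip3l and Idh3a, from the RefSeq annotation of the mouse build GRCm38.p6. In the 250 bases before the transcription start, 39 of 53 windows (73.6%) and 28 of 35 genes held ACGTG or GCGTG on either strand. A match on the opposite strand reads CACGT for the first core and CACGC for the second on the printed strand. Among the 32851 windows of all genes 38.6% held either, and among the 21262 of protein-coding genes 44.0% did. These shares are per window, and no share per gene was computed to set beside the 28 of 35. A gene with several starts gives several windows, and some of them overlap and share the same matches, as in Ogdh. A CACGTG box is counted on both strands, so it gives 2 matches. A match describes the letters of the window and is not evidence of binding.

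Windows of 6 genes are shown in full, 5 of them called below and 1 for its motifs, 5′ to 3′ on the strand of the gene, with the matched letters in capitals. Pdk1, Adm and P4ha2 were higher in Q111. Hk2 and Slc2a1 were higher under cystamine, and Hk2 was also called lower in Q111 than in Q7. Ldha, the lactate dehydrogenase subunit, has the most matches of these 6 and was called in no comparison. Pdk1 and Ldha each have a further window, for a start downstream of the one shown, with 0 matches for Pdk1 and 1 GCGTG match for Ldha. Of the other called genes, the Eno2 window and 1 of 2 Vegfa windows hold no match, so the 6 do not stand for all called genes. Pfkm, with matches in some of its windows, was called higher in Q111 and lower under cystamine. Pdk1 lies at chr2:71872974-71873223 on the plus strand, with 1 GCGTG whose first base is 78 bases before the start.
Pdk1: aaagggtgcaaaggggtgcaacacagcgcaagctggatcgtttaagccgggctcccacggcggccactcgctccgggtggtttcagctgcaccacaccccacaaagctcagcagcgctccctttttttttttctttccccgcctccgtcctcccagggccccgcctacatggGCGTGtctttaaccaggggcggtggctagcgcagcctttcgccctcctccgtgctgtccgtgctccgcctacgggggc
Adm lies at chr7:110627407-110627656 on the plus strand, with 2 matches to GCGTG, both on the opposite strand.
Adm: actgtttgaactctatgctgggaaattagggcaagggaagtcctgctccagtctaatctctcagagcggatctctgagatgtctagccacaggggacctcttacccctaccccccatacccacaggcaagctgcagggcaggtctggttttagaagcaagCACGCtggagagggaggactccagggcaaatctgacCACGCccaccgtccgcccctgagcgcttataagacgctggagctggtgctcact
P4ha2 lies at chr11:54100674-54100923 on the plus strand, with 1 ACGTG and 2 matches to GCGTG between 107 and 69 bases before the start.
P4ha2: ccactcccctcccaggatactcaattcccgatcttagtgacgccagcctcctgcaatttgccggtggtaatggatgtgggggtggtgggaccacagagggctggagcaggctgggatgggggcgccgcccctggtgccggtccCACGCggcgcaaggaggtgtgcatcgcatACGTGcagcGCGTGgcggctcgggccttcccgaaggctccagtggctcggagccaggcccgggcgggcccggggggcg
Hk2 lies at chr6:82774455-82774704 on the minus strand, with 2 matches to ACGTG at 226 and 52 bases before the start.
Hk2: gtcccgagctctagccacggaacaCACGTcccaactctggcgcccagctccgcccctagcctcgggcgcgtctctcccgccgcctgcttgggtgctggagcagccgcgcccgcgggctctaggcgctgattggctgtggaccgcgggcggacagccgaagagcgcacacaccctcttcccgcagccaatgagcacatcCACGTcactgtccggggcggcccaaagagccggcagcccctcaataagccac
Slc2a1 lies at chr4:119108495-119108744 on the plus strand, with 1 match to each core.
Slc2a1: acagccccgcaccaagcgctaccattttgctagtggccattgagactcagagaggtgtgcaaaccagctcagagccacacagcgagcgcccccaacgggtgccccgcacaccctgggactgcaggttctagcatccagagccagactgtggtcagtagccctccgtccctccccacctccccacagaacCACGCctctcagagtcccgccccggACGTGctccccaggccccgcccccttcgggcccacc
Ldha lies at chr7:46845554-46845803 on the plus strand, with 5 matches to ACGTG, 4 of them in 2 CACGTG boxes.
Ldha: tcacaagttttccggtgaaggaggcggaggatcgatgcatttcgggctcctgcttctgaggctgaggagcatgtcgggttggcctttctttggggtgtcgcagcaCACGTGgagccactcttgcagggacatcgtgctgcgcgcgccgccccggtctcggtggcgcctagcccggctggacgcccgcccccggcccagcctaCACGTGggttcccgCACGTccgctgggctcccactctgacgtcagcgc

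The first question was whether the lines differ in these genes. In the untreated cells, 2 of the 38 genes differed between Q111 and Q7, both higher in Q111: Ndrg1, a stress-responsive gene that hypoxia induces, and Pdk1, the kinase that shuts down pyruvate dehydrogenase. Of all genes tested 3.23% passed the same threshold, an adjusted p of at most 0.05 (limma's moderated test, Benjamini-Hochberg over 9849 genes), so the count is close to the background. The median difference of the 38 genes was -0.01 on the log2 scale, against -0.01 for all genes.

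The Ndrg1 level in untreated Q7 was 9.41, 9.55 and 9.12 on BeadChips 1, 2 and 3, and 10.11, 9.97 and 9.85 in untreated Q111. Every Q111 array lay above every Q7 array. The difference was 0.62 (SE 0.12, adjusted p = 0.00532), a fold of 1.53, and without the BeadChip term the adjusted p was 0.128. Pdk1 was at 8.86, 8.75 and 8.37 in untreated Q7 and at 8.92, 9.27 and 9.16 in untreated Q111. The groups did not overlap, though the Q7 and Q111 arrays of BeadChip 1 differed by only 0.06. The difference was 0.45 (SE 0.12, adjusted p = 0.042), and 0.0825 without the BeadChip term. Pdk1 also lost its call without untreated Q7 replicate 2 (adjusted p = 0.0752) or 3 (0.232), or untreated Q111 replicate 2 (0.184) or 3 (0.219). Without BeadChip 3 the Pdk1 difference was 0.29 (adjusted p = 0.29). The Pdk1 call was lost as well without the filter on dim probes, with each array scaled to its median and from the untreated arrays alone. Without BeadChip 1 or BeadChip 2 both the Ndrg1 and the Pdk1 call were lost.

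In the other roles the largest differences of the untreated cells did not pass. Eno2, the enolase isoform typical of neurons, was lower by more than any other gene of the 38 (-0.66, adjusted p = 0.174), and Pfkp, a phosphofructokinase isoform, was at 0.37 (0.174). Hk2, the hexokinase that traps glucose in the cell by phosphorylation, was at -0.31 (0.142), with no overlap between the lines. In the TCA cycle Mdh2, the mitochondrial malate dehydrogenase, was at -0.34 (0.126), also with no overlap, and Fh1, the fumarase, at -0.33 (0.294). Among the hypoxia genes P4ha2, a collagen prolyl hydroxylase, came after Ndrg1 with 0.25 (0.303), and in the pyruvate dehydrogenase complex Pdhb, an E1 subunit, and Dlat, the E2 subunit, were both at 0.12 (0.781 and 0.645). The 95% intervals of the 38 differences ran from -1.17 (Eno2) to 0.87 (Ndrg1), with a median half-width of 0.25.

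**Figure D1:**
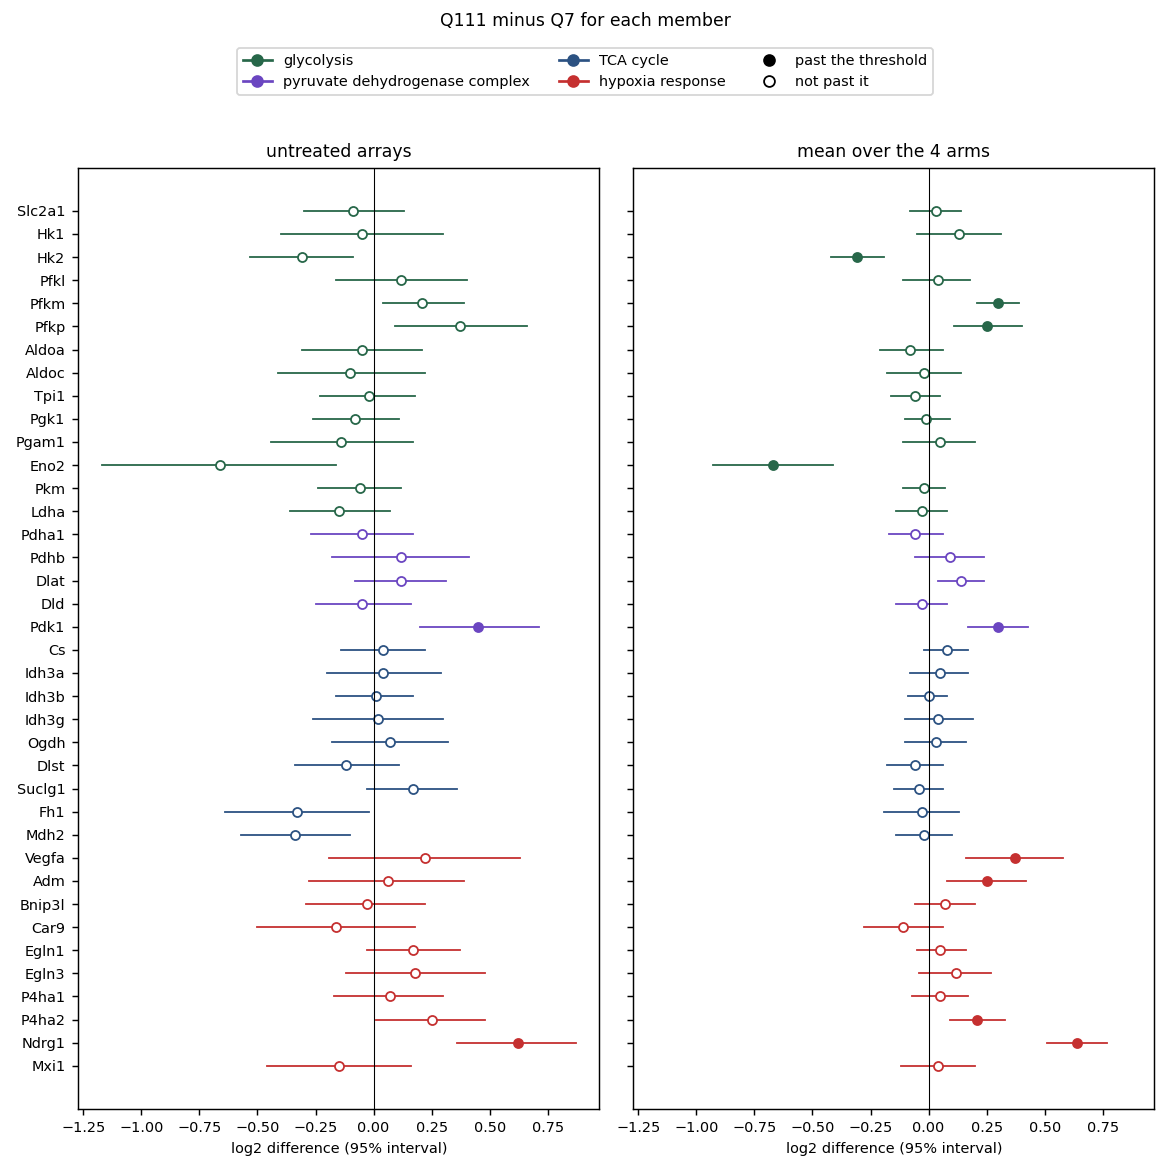
Difference between the lines (Q111 minus Q7, log2, horizontal axis) for each of the 38 genes, ordered by role, in the untreated arrays (left) and as the mean over the 4 arms (right). Points are limma estimates with 95% intervals, filled where the adjusted p passed the threshold; 2 genes are filled on the left and 9 on the right, none of them from the TCA cycle.

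Averaged over the 4 arms (control, ZDON, Boc-DON and cystamine), which compares 12 arrays of Q111 with 11 of Q7, 9 of the 38 genes differed. Higher in Q111 were Ndrg1, Pfkm, Pdk1, Vegfa, P4ha2, Pfkp and Adm, and lower were Hk2 and Eno2. The threshold was passed by 17.1% of all genes, so the lines differ in many genes and the count here is not far from that background. By role, 4 of 14 genes of glycolysis were called, 2 in each direction, 1 of 5 of the pyruvate dehydrogenase complex (Pdk1), 0 of 9 of the TCA cycle and 4 of 10 of the hypoxia response. Of these 4, Ndrg1, Vegfa and P4ha2 were measured above the array median on every array and were higher in Q111, while Adm passed the filter through Q111 arrays alone, so its call and direction add nothing to the count. The median difference was 0.04 for the 38 genes and -0.01 for all genes. Of the called genes of the whole array 56.2% were higher in Q111, and 77.3% when each array was scaled to its median and not quantile-normalized.

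The 4 hypoxia genes are shown first. Ndrg1 ranged from 9.12 over a median of 9.49 to 9.68 in the 11 Q7 arrays, and from 9.44 to 10.67 in the 12 Q111 arrays, with a median of 10. It was higher in Q111 in all 11 pairs of arrays that share a BeadChip and an arm, by 0.64 on average (SE 0.06, adjusted p = 3.11e-07, fold 1.56). Ndrg1 kept its call in every fit that left out 1 array (adjusted p at most 4.01e-06) or 1 BeadChip (at most 0.0015).

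Vegfa, the growth factor that drives vessel growth, ran from 10.21 over 10.46 to 10.87 in Q7 and from 10.27 over 10.87 to 11.30 in Q111. The ranges overlapped widely. The difference was 0.37 (SE 0.10, adjusted p = 0.0145), with 9 of 11 pairs higher, and the call was lost without Boc-DON-treated Q7 replicate 1 (0.0561). On BeadChips 1 and 2 the mean difference was 0.56 and 0.52, and on BeadChip 3 it was 0.00.

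P4ha2 ran from 8.93 over 9.21 to 9.43 in Q7 and from 9.06 over 9.39 to 9.63 in Q111, a difference of 0.21 (SE 0.06, adjusted p = 0.016). The call was lost without the BeadChip term (0.129), which carried 36.1% of the gene's variance. Adm, which encodes the vasodilator peptide adrenomedullin, ran from 6.28 over 6.58 to 6.79 in Q7 and from 6.39 over 6.77 to 7.19 in Q111. The 4 highest arrays were all from Q111, but the rest overlapped. The difference was 0.25 (SE 0.08, adjusted p = 0.0443), and the call was lost in 15 of 23 fits that left out 1 array (highest adjusted p 0.125), without the BeadChip term (0.0684) and without the filter on dim probes (0.0628). Without BeadChip 1 the Adm difference was 0.13 (0.469). The arm-wise difference of Adm was 0.43 under ZDON and 0.45 under cystamine, against 0.06 in the controls and 0.03 under Boc-DON.

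The other 6 hypoxia genes did not pass. They were Bnip3l, a mitophagy receptor of the outer mitochondrial membrane, Car9, a carbonic anhydrase of the cell surface, the HIF prolyl hydroxylases Egln1 and Egln3, the collagen prolyl hydroxylase P4ha1 and the Myc antagonist Mxi1. Their differences lay between -0.11 (Car9) and 0.12 (Egln3).

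**Figure D2:**
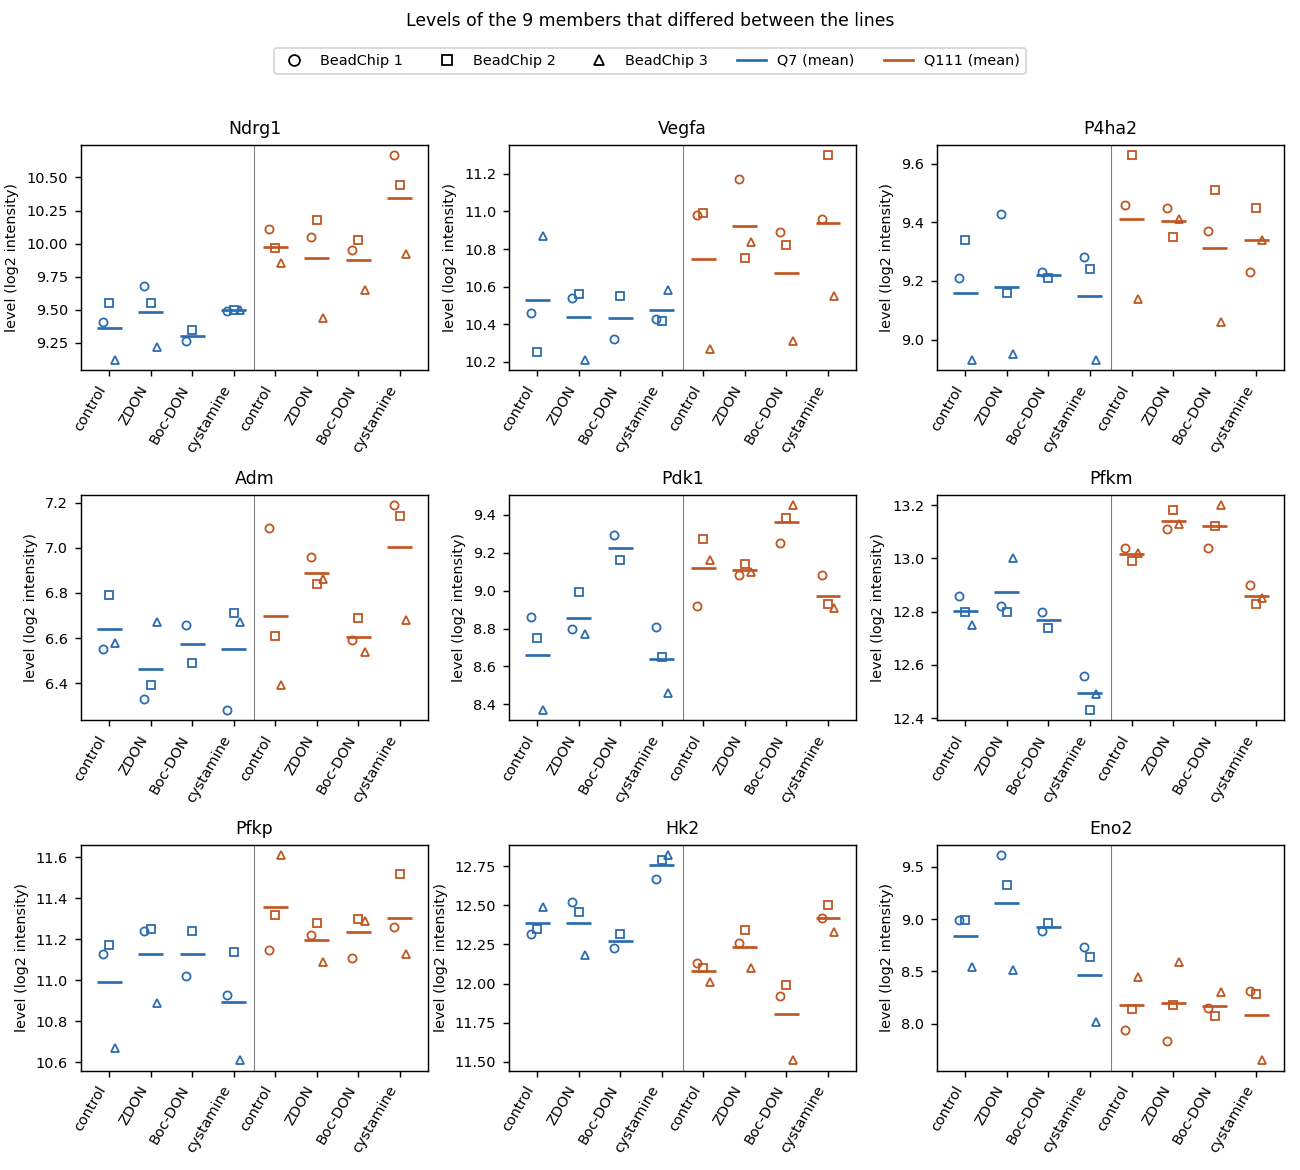
Level (log2 intensity, vertical axis) on every array of the 9 genes called between the lines over the 4 arms, by line and arm. Each point is 1 array with its BeadChip as the shape, and bars are group means of 2 or 3 arrays; the Q111 points of Ndrg1 run up to 10.67 and those of Eno2 reach no higher than 8.59, while the points of Vegfa, P4ha2 and Adm overlap between the lines.

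In glycolysis the 3 phosphofructokinase genes, which encode the subunits of the main control step, did not all differ. Pfkm, the muscle-type subunit, ran from 12.43 over 12.80 to 13.00 in Q7 and from 12.83 over 13.04 to 13.20 in Q111. It was higher in Q111 in 11 of 11 pairs, by 0.30 (SE 0.04, adjusted p = 3.7e-05, fold 1.23), and a further Pfkm probe differed by 0.17. Pfkp, the platelet-type subunit, ran from 10.61 over 11.13 to 11.25 in Q7 and from 11.09 over 11.27 to 11.61 in Q111. It was higher in 10 of 11 pairs, by 0.25 (SE 0.07, adjusted p = 0.0161). By BeadChip the Pfkp difference was 0.11, 0.16 and 0.55, and without BeadChip 3 it was 0.13 (adjusted p = 0.0568). The Pfkp call was also lost without the BeadChip term (0.0641), with the mean of its kept probes (0.0587) and without Boc-DON-treated Q7 replicate 1 (0.0503). Pfkl, the liver-type subunit, differed by 0.04 and was not called.

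Hk2 went the other way. It ran from 12.18 over 12.46 to 12.82 in Q7 and from 11.51 over 12.12 to 12.50 in Q111, and was lower in Q111 in 11 of 11 pairs. The difference was -0.31 (SE 0.06, adjusted p = 0.000478, fold 1.24). Hk1, the hexokinase of most tissues, was at 0.13 and was not called. Eno2 ran from 8.02 over 8.89 to 9.61 in Q7 and from 7.65 over 8.17 to 8.59 in Q111. The difference was -0.67 (SE 0.13, adjusted p = 0.000701, fold 1.59), the largest of the 38, and 10 of 11 pairs were lower. It was -0.99 on BeadChip 1, -0.81 on BeadChip 2 and -0.13 on BeadChip 3.

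The other 9 glycolytic genes that were not called, besides Pfkl, were the glucose transporter Slc2a1 and the enzymes Hk1, Aldoa, Aldoc, Tpi1, Pgk1, Pgam1, Pkm and Ldha, which act between glucose and lactate. Their differences between the lines lay between -0.08 (Aldoa) and 0.13 (Hk1).

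In the pyruvate dehydrogenase complex Pdk1 ran from 8.37 over 8.80 to 9.29 in Q7 and from 8.91 over 9.12 to 9.45 in Q111. The 2 Boc-DON arrays held the highest values of Q7, and the ranges overlapped. The difference was 0.30 (SE 0.06, adjusted p = 0.00165), higher in 10 of 11 pairs. By BeadChip it was 0.14, 0.29 and 0.52. The structural genes of the complex did not pass: Pdha1 and Pdhb, the E1 subunits, Dlat, the E2 subunit, and Dld, the E3 subunit that the 2-oxoglutarate dehydrogenase complex shares, lay between -0.06 and 0.14.

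No gene of the TCA cycle was called between the lines. These are the citrate synthase Cs, the isocitrate dehydrogenase subunits Idh3a, Idh3b and Idh3g, Ogdh and Dlst of the 2-oxoglutarate dehydrogenase complex, the succinyl-CoA ligase subunit Suclg1, Fh1 and Mdh2. Their 95% intervals over the 4 arms all lay between -0.19 and 0.19 on the log2 scale, and 0 of the 9 had an unadjusted p of 0.05 or less.

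**Figure D3:**
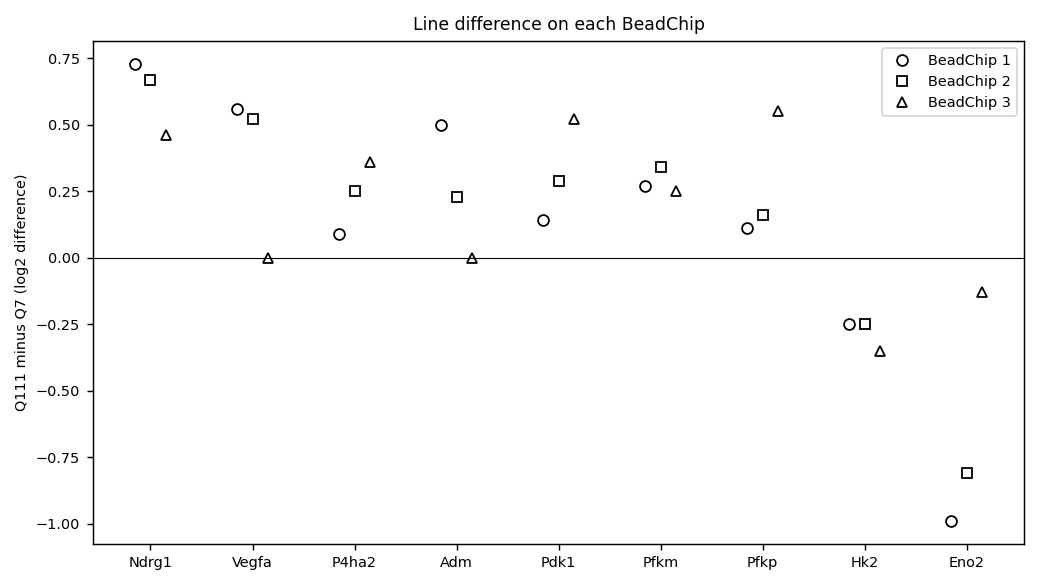
Difference between the lines (Q111 minus Q7, log2, vertical axis) on each of the 3 BeadChips for the 9 called genes, averaged over the arms with an array of both lines on that BeadChip (4, 4 and 3 arms). Ndrg1, Pfkm and Hk2 lie at least 0.25 from 0 on all 3 BeadChips, while Vegfa and Adm are at 0.00 and Eno2 at -0.13 on BeadChip 3.

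Without BeadChip 1, Hk2, Ndrg1, Pdk1 and Pfkm were called, and without BeadChip 2, Hk2, Ndrg1 and Pfkm were, and Eno2, Vegfa, Adm, P4ha2 and Pfkp lost their calls in both fits. Without BeadChip 3, P4ha2 (0.17, adjusted p = 0.0616) and Pfkp lost their calls and the other 7 were called.

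Genes of the same pathways outside the 38 were counted from longer lists. Of all genes tested 17.1% were called over the 4 arms and 3.23% in the untreated cells, and the counts stand against these shares. Of 13 further glycolysis genes tested, 1 was higher and 2 were lower in Q111 over the 4 arms. The neuronal glucose transporter Slc2a3 was lower (-0.45, SE 0.05, adjusted p = 1.55e-06). Pfkfb4, whose enzyme sets the level of an activator of phosphofructokinase, was higher (0.29, SE 0.06, adjusted p = 0.00115). Of 17 further genes of pyruvate and the TCA cycle 2 were higher and 0 lower, both of them regulators of the pyruvate dehydrogenase complex, the kinase Pdk2 and the phosphatase Pdp1. Of 20 further hypoxia genes 3 were higher and 2 lower. Car12, a carbonic anhydrase of the cell surface, ran from 6.44 over 6.65 to 6.94 in Q7 and from 6.80 over 7.74 to 8.29 in Q111 (1.01, SE 0.09, adjusted p = 5.49e-08). It was above the array median on 11 of 12 Q111 arrays and on 1 of 11 Q7 arrays, so it entered the test mostly through the line in which it is higher. Plod1, a collagen lysyl hydroxylase, was at 0.28 (0.000591). In the untreated cells, 0 of the 13, 0 of the 17 and 2 of the 20 passed, Car12 higher (1.20, adjusted p = 0.000198) and Ddit4, an inhibitor of mTOR signalling, lower (-0.62, adjusted p = 0.00361). Without the BeadChip term both of these kept their calls, and over the 4 arms 5 of the 10 further genes did. The calls lost were those of Eno3 (adjusted p = 0.155), Pdp1 (0.167), Ddit4 (0.0941), Stc2 (0.174) and Pgf, a vascular growth factor (0.137).

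The second question was what the compounds change. Under cystamine, a disulfide amine that inhibits transglutaminases, the hexokinase gene Hk2 and the glucose transporter gene Slc2a1 rose and the phosphofructokinase gene Pfkm fell, as the mean over both lines. These were 3 of the 38 genes, against 3.68% of all genes. Within a single line none passed, in Q111 (0 of 38, background 1.73%, lowest adjusted p 0.0592, for Slc2a1) or in Q7 (0 of 38, background 0.924%, lowest 0.0848, for Pfkm), where 7 and 5 of the 38 had an unadjusted p of 0.05 or less. Of all called genes 58.8% were higher under cystamine over both lines and 18.5% under median scaling. In Q111 the shares were 76.5% and 46.6%, and in Q7 72.5% and 30.3%, so the balance of directions over the whole array rests on the scaling.

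Hk2 was at 12.32, 12.35 and 12.49 in untreated Q7 and at 12.67, 12.79 and 12.82 under cystamine. In Q111 it was at 12.13, 12.10 and 12.01 untreated and at 12.42, 12.50 and 12.33 under cystamine. In both lines every cystamine array lay above every control array. The mean rise was 0.35 (SE 0.08, adjusted p = 0.00874, fold 1.28), with pair differences from 0.29 to 0.44 in 6 of 6 pairs on the same BeadChip. The Hk2 call was lost without BeadChip 1 and without BeadChip 2, while the rise lay between 0.31 and 0.41 in every alternative.

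Slc2a1 was at 11.92, 12.11 and 11.68 in untreated Q7 and at 12.30, 12.16 and 12.05 under cystamine. In Q111 it was at 11.93, 12.15 and 11.36 untreated and at 12.29, 12.38 and 11.94 under cystamine. BeadChip 3 was the lowest in all 4 groups, so the groups overlapped while all 6 pairs on the same BeadChip rose, by 0.06 to 0.58. The mean rise was 0.33 (SE 0.07, adjusted p = 0.0104), and the adjusted p was 0.239 without the BeadChip term, 0.0747 under median scaling, 0.0771 without BeadChip 3 and 0.083 from the arrays of these groups alone. The Slc2a1 call was lost without BeadChip 1 too.

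Pfkm was at 12.86, 12.80 and 12.75 in untreated Q7 and at 12.56, 12.43 and 12.49 under cystamine. In Q111 it was at 13.04, 12.99 and 13.02 untreated and at 12.90, 12.83 and 12.85 under cystamine. All 6 pairs were lower, and neither line's groups overlapped. The mean change was -0.23 (SE 0.06, adjusted p = 0.0247), and the further probe moved by -0.22. The call was lost with the mean of its kept probes (0.0694), without the filter (0.0633), under median scaling (0.0725) and from the arrays of these groups alone (0.102). Without BeadChip 1 and without BeadChip 2 the call was lost as well. It was also lost in 8 of 12 fits that left out 1 array, 4 in each line, with adjusted p-values up to 0.0742. They were the fits without untreated Q7 replicate 1 or 2, cystamine-treated Q7 replicate 2 or 3, untreated Q111 replicate 1 or 2, or cystamine-treated Q111 replicate 2 or 3.

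The other roles held no called gene under cystamine. All 5 genes of the pyruvate dehydrogenase complex had a negative estimate, with a median of -0.10 against -0.00 for all genes, the largest for Dld (-0.23, adjusted p = 0.0813) and Pdhb (-0.16, 0.454). A further Dld probe that passed the filter gave -0.01, and a further Pdhb probe that did not pass it gave -0.06, so these estimates depend on the probe. In the TCA cycle Cs was lower in 6 of 6 pairs (-0.22, adjusted p = 0.0528) and Idh3a was at -0.11 (0.56). Among the hypoxia genes Ndrg1 was at 0.25 (0.128) and Egln1, the main HIF prolyl hydroxylase, at -0.21 (0.094), lower in 6 of 6 pairs. By line, the largest estimates of the hypoxia genes in Q111 were Ndrg1 (0.36) and Egln1 (-0.31), and those in Q7 were P4ha1 (0.21) and Mxi1 (-0.16). In glycolysis they were Slc2a1 (0.39) and Hk2 (0.34) in Q111, and Eno2 (-0.38) and Hk2 (0.37) in Q7. In the pyruvate dehydrogenase complex they were Dld (-0.35, further probe 0.07) and Pdhb (-0.20, further probe 0.03) in Q111, and Pdhb (-0.13, further probe -0.15) and Pdha1 (-0.11) in Q7. In the TCA cycle they were Fh1 (0.32) and Suclg1 (-0.23, further probe -0.00) in Q111, and Cs (-0.28) and Mdh2 (-0.26) in Q7.

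**Figure D4:**
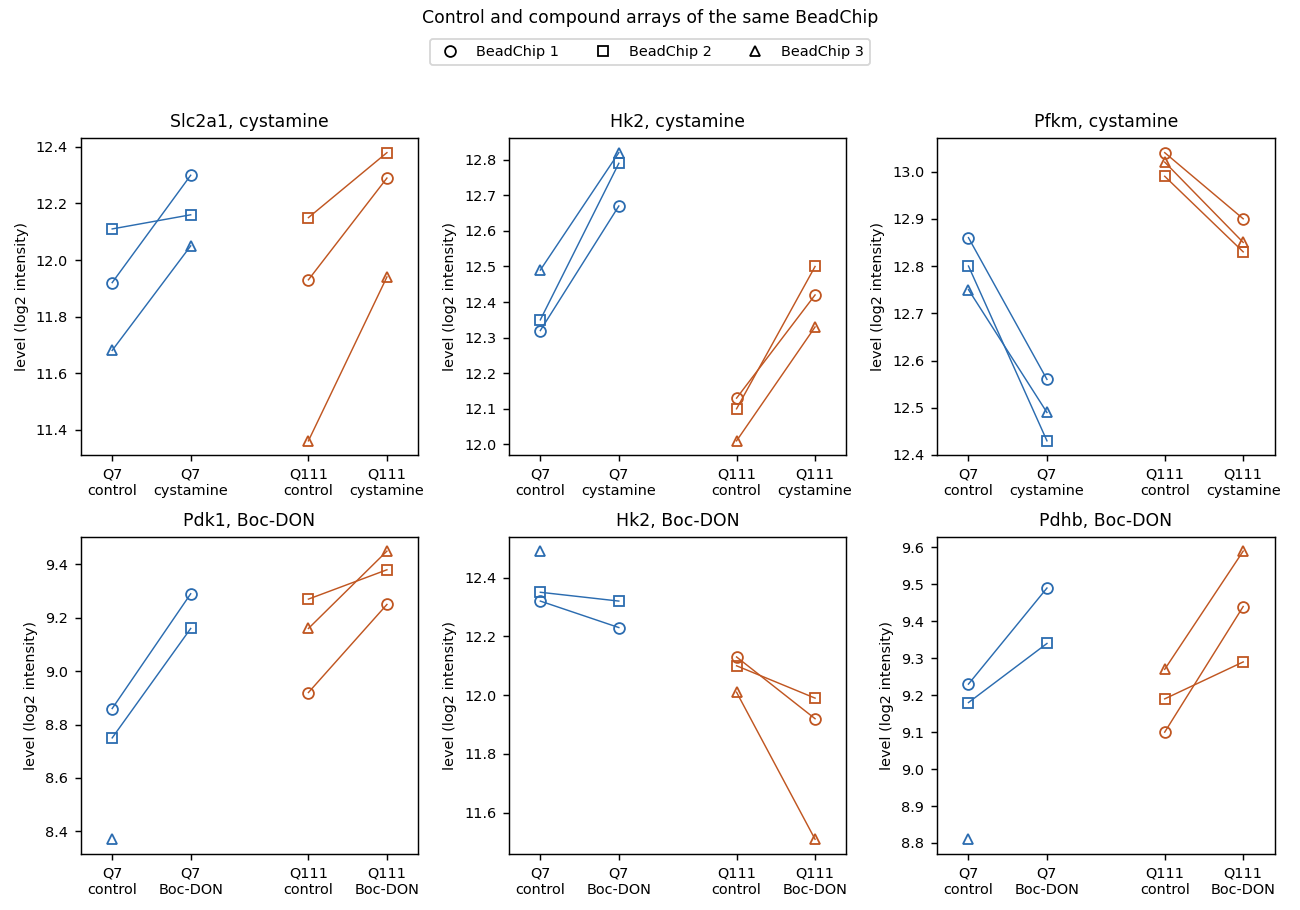
Level (log2 intensity, vertical axis) on control and compound arrays, with lines joining arrays of the same cell line and BeadChip. Under cystamine all 6 pairs rise for Slc2a1 and Hk2 and all 6 fall for Pfkm; under Boc-DON all 5 pairs rise for Pdk1 and Pdhb and all 5 fall for Hk2, of which Pdk1 alone passed the threshold.

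Under cystamine over both lines 3.68% of all genes passed. Among the further genes, 0 of 13 of glycolysis, 1 of 17 of pyruvate and the TCA cycle and 4 of 20 of the hypoxia list did, 3 of the latter higher. Stc2, a secreted glycoprotein (0.62, SE 0.08, adjusted p = 3.7e-05), and Maff, a small Maf transcription factor (0.62, SE 0.10, adjusted p = 0.000714), rose. Narf fell by 0.44 (SE 0.09, adjusted p = 0.00506), and Ddit4 rose by 0.35 (0.0178). Pdk2 was at -0.33 (0.0373), in the direction opposite to its difference between the lines. In Q111 alone Ddit4 (0.68, adjusted p = 0.00287), Stc2 (0.65, 0.0023), Maff (0.63, 0.0257) and Narf (-0.60, 0.0123) passed, and in Q7 Stc2 (0.60, 0.00711) and Maff (0.62, 0.0421). Without the BeadChip term Stc2, Maff and Narf kept their calls over both lines, and Ddit4 (0.0539) and Pdk2 (0.0575) did not. Within the lines only Ddit4 in Q111 kept its call without that term (0.0144), while Stc2 was at 0.1 in Q111 and 0.195 in Q7, Maff at 0.0716 and 0.104, and Narf at 0.0703 in Q111.

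Boc-DON gave 1 called gene, Pdk1, which was also called between the lines, in comparisons that share the untreated arrays. Averaged over both lines it rose by 0.38 (SE 0.09, adjusted p = 0.0243, fold 1.31), as 1 of 38 genes against 2.78% of all genes. In Q7 it was at 8.86, 8.75 and 8.37 untreated and at 9.29 and 9.16 under Boc-DON, with no overlap. In Q111 it was at 8.92, 9.27 and 9.16 untreated and at 9.25, 9.38 and 9.45 under Boc-DON, with 1 control array above the lowest treated one. All 5 pairs rose, by 0.11 to 0.43. The call was lost without untreated Q111 replicate 1 (adjusted p = 0.0827) or Boc-DON-treated Q111 replicate 3 (0.0886), without BeadChip 3 (0.0746), and under median scaling (0.112). From the arrays of these groups alone it was lost too. It was also lost without either Boc-DON array of Q7, and without BeadChip 1 or 2, fits that leave 1 array in that group.

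Within each line no gene passed under Boc-DON, in Q111 (0 of 38, background 0.802%) or in Q7 (0 of 38, background 0.254%), where 3 and 4 of the 38 had an unadjusted p of 0.05 or less. In glycolysis the largest mean estimates were Pgam1 at -0.24 (adjusted p = 0.287) and Hk2 at -0.22 (0.174). Hk2 was at 11.92, 11.99 and 11.51 in Q111, below all 3 control arrays of that line, and was lower in 5 of 5 pairs. Pdhb was higher in 5 of 5 pairs (0.30, 0.152), while its further probe, which did not pass the filter, gave -0.09. Among the hypoxia genes Bnip3l was higher in 5 of 5 pairs (0.21, 0.276), with 12.11, 12.02 and 12.16 in Q111 against 11.74, 11.73 and 11.67 untreated, and Egln3 was at -0.21 (0.359). The TCA genes lay between -0.10 (Idh3a) and 0.09 (Fh1).

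By line, the largest estimates under Boc-DON were of these genes. In Q111 they were Hk2 (-0.28) and Ldha (0.22), Pdhb (0.25) and Pdk1 (0.24), Fh1 (0.26) and Suclg1 (-0.20), and Bnip3l (0.38) and Egln3 (-0.24). In Q7, with 2 arrays, they were Pgam1 (-0.37) and Hk1 (-0.30), Pdk1 (0.53) and Pdhb (0.34), Mdh2 (-0.29) and Dlst (-0.13), and Mxi1 (-0.20) and Ndrg1 (-0.18). Further probes gave -0.07 for Pdhb and -0.09 for Suclg1 in Q111, and -0.11 for Pdhb in Q7. Over both lines 2.78% of all genes passed. Of the further genes 0 of 17 and 0 of 20 of the other lists did, and 2 of 13 of glycolysis, both lower. They were Eno3, the muscle-type enolase, by 0.58 (adjusted p = 0.0328) and Slc2a3 by 0.29 (0.034). Neither call held without the BeadChip term (Eno3 0.501, Slc2a3 0.168). Of all called genes 37.2% were higher under Boc-DON over both lines, and 14.4% under median scaling.

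ZDON changed none of the 38 genes past the threshold. The count was 0 in Q111 (background 0.183%), 0 in Q7 (background 0.0508%) and 0 over both lines (background 1.65%), with lowest adjusted p-values of 0.375, 0.481 and 0.278. At an unadjusted p of 0.05 or less there were 1, 2 and 3 genes. Over both lines the largest estimates were Slc2a1 (-0.17) and Eno2 (0.17) in glycolysis, Pdhb (-0.19) and Pdk1 (0.09) in the pyruvate dehydrogenase complex, and Bnip3l (0.14) and Egln1 (-0.07) among the hypoxia genes. The further Pdhb probe gave -0.02. In the TCA cycle 8 of 9 estimates were negative, with a median of -0.10 against 0.00 for all genes. Idh3a was the largest (-0.20, 6 of 6 pairs lower) and Idh3g came next (-0.18). The 95% intervals of the 38 genes ran from -0.40 (Pdhb) to 0.53 (Eno2), so a change of more than that size in either direction was outside every interval.

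By line, the largest estimates under ZDON in Q111 were Pfkp (-0.17) and Ldha (0.16), Pdhb (-0.16) and Dld (0.06), Suclg1 (-0.24) and Ogdh (-0.24), and Adm (0.19) and Vegfa (0.17). In Q7 they were Eno2 (0.31) and Slc2a1 (-0.26), Pdhb (-0.22) and Pdk1 (0.19), Mdh2 (-0.28) and Idh3a (-0.23), and Adm (-0.18) and Mxi1 (-0.14). Further probes in Q111 gave 0.13 for Suclg1, -0.07 for Ogdh, 0.31 for Dld, -0.18 for Pdhb, and -0.24 and 0.06 for Pfkp. The further Pdhb probe gave 0.15 in Q7. None of the further genes passed under ZDON over both lines (0 of 13, 0 of 17 and 0 of 20), against 1.65% of all genes. In Q111 61.1% of the 18 called genes of the array were higher, against 83.3% under median scaling and 45.9% without background correction. In Q7 40% of 5 called genes were higher, and 0% under median scaling.

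**Figure D5:**
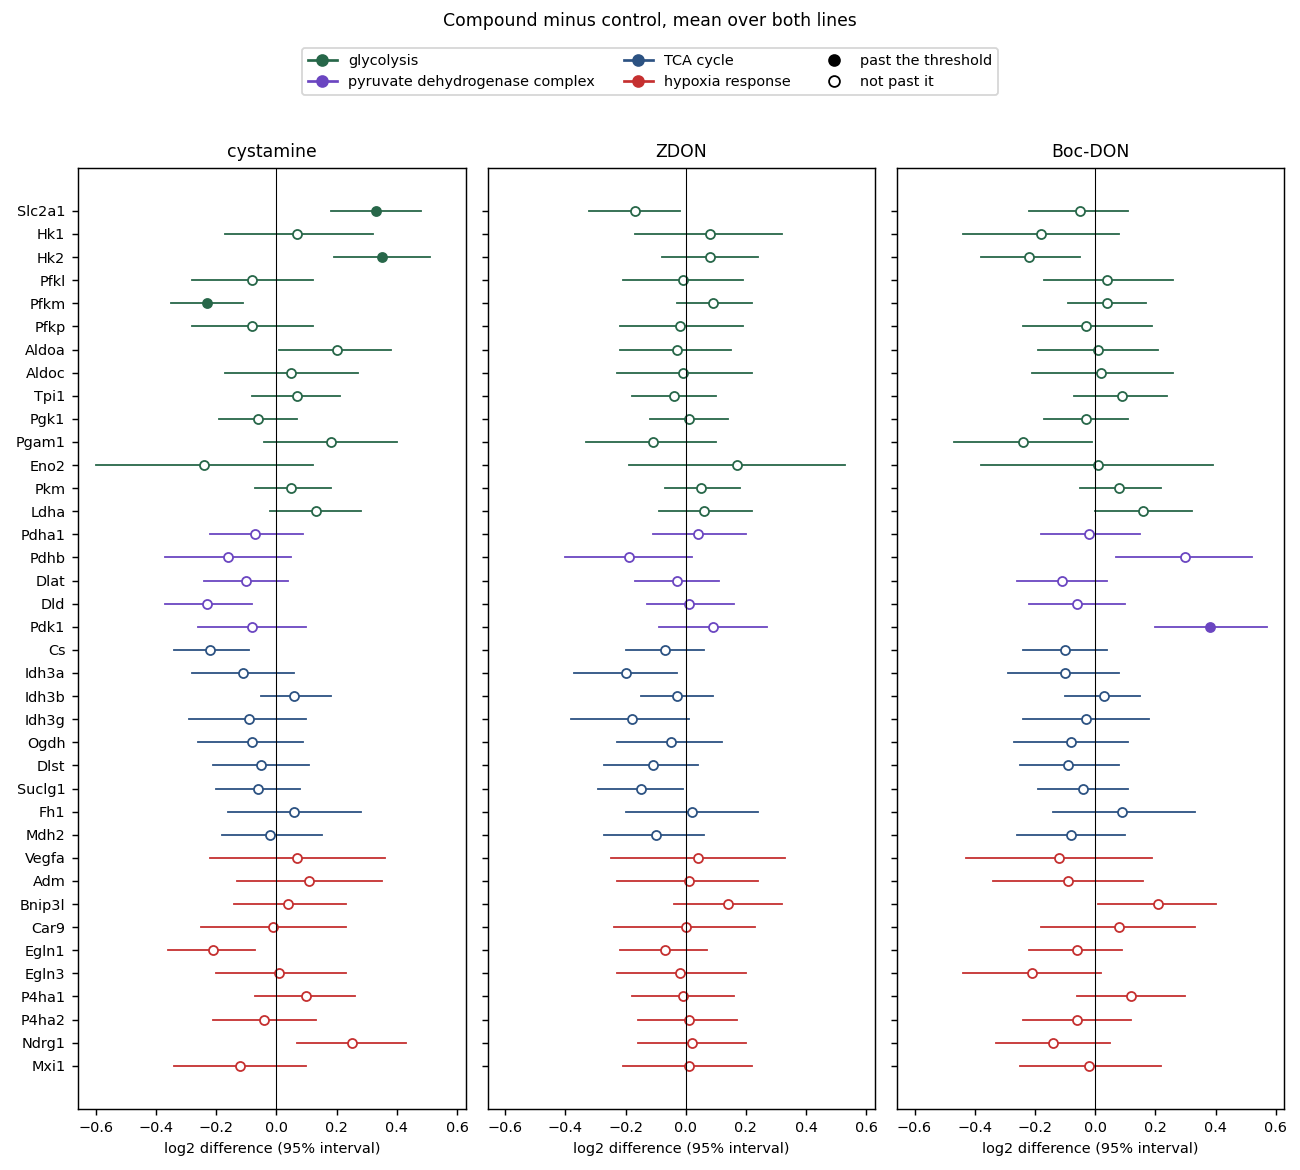
Compound minus control (log2, horizontal axis) as the mean over both lines for each of the 38 genes, for cystamine, ZDON and Boc-DON, with 95% intervals and filled points where the adjusted p passed the threshold. The filled points are Slc2a1, Hk2 and Pfkm under cystamine and Pdk1 under Boc-DON; the 3 panels share the same control arrays.

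The third question was whether a compound acts differently in the 2 lines. None of the 38 genes passed the test of a difference in response, for cystamine (0 of 38, background 0%), ZDON (0 of 38, background 0%) or Boc-DON (0 of 38, background 0%), by limma's interaction contrasts. At an unadjusted p of 0.05 or less there were 3, 2 and 2 genes, and with no BeadChip term 0 genes of the array were called in any of them. The lowest unadjusted p was that of Mdh2 under cystamine, whose response was 0.49 higher in Q111 (95% interval 0.16 to 0.82, adjusted p = 0.794). It was at 11.97, 12.10 and 12.02 in untreated Q7 and at 11.75, 11.68 and 11.87 under cystamine, and in Q111 at 11.86, 11.73 and 11.48 untreated and at 11.95, 11.75 and 12.06 under cystamine. The median half-width of these unadjusted intervals was 0.35 for cystamine and for ZDON and 0.37 for Boc-DON. It is not the size that the adjusted test could detect, since the larger Mdh2 difference of 0.49 did not pass.

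ZDON and Boc-DON were given at the same dose and time, and their contrast involves no control group. The control arrays were still in the fit, where they enter its BeadChip terms and its estimate of the spread. None of the 38 genes differed between them in Q111 (0 of 38, background 0.0609%) or in Q7 (0 of 38, background 0.183%), with 3 genes at an unadjusted p of 0.05 or less in each. The lowest adjusted p-values were those of Hk2 in Q111 (0.43 higher under ZDON, 95% interval 0.21 to 0.65, adjusted p = 0.236) and Pdhb in Q7 (-0.57, interval -0.90 to -0.23, 0.24). Of the 18 called genes of the array in Q7 83.3% were higher under ZDON, and 100% under median scaling.

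Over both lines, a comparison that was added after these values were seen, Pdhb was lower under ZDON, as 1 of 38 genes against 0.833% of all genes. The Pdhb level was 9.11, 8.65 and 8.80 under ZDON in Q7 and 8.83, 9.07 and 9.17 in Q111, and it was 9.49 and 9.34 under Boc-DON in Q7 and 9.44, 9.29 and 9.59 in Q111. All 5 Boc-DON arrays lay above all 6 ZDON arrays, and all 6 control arrays, from 8.81 to 9.27, also lay below the Boc-DON arrays. The difference was -0.49 (95% interval -0.71 to -0.27, adjusted p = 0.0336). The call was lost without the BeadChip term (0.0553), under median scaling and from the arrays of these groups alone. It was also lost in 8 of 11 fits that left out 1 array. A further Pdhb probe, at a mean percentile of 18.6, gave 0.08. Pdk1, which was higher under Boc-DON than in the controls, was at -0.30 (0.166) and Hk2 at 0.29 (0.106) in the same comparison, and neither passed. Of all called genes 68.3% were higher under ZDON, and 81.1% under median scaling.

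How the 38 genes varied over the arrays differed by gene. In a sequential split of each gene's variance into BeadChip, line, compound and their combination, the line took the most in Ndrg1 (62.9%), Pfkm (53%) and Eno2 (48.4%). The compound took the most in Pdhb (57.8%), Cs (53.5%), Hk2 (49.9%) and Slc2a1 (49.9%). BeadChip took the most in P4ha1 (71%), whose mean level was 7.91, 7.95 and 8.40 on BeadChips 1, 2 and 3, and Dld (38.1%). Slc2a1 and P4ha2 went the other way between BeadChips, with Slc2a1 at 11.99, 12.03 and 11.65 and P4ha2 at 9.33, 9.36 and 9.11. Which step of the work made the BeadChips differ was not tested. Idh3b varied least, with a range of 0.23 over all 23 arrays, and Eno2 most, with 1.96.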

How the data were processed

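Total RNA of Q7 and Q111 cells was hybridised to Illumina mouse bead arrays, and 23 arrays in 8 groups were analysed. The table of probe intensities used here was deposited without normalization, and it came from BeadStudio per the submitters' processing notes, which give no version. Of its columns 1 was not used, since it matched none of the samples. The log2 values that the authors deposited served as an alternative. The sources used here do not give their method, and they equal a quantile normalization of the intensities within 5e-09.

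The intensities were background-corrected (normexp, offset 50), quantile-normalized and put on the log2 scale. Of 24611 probes, 15049 above the array median on at least 2 arrays were kept, then the probe with the highest mean per gene symbol, 9849 genes in all. Median raw intensity per array ran from 107.4 to 165. Precision is set by how many arrays there are. One fit of limma 3.58.1 (R 4.3.3) took the 8 groups and, as a block, the replicate number, with 13 residual degrees of freedom, and 17 contrasts were adjusted by Benjamini-Hochberg over all genes at 0.05. The contrast of ZDON with Boc-DON over both lines was added after values were seen. A number marks a BeadChip in the sample descriptions. Deviations from group means correlated with a median of 0.208 between arrays of the same number (72 of 77 pairs above 0) and -0.111 between others (44 of 154). Alternatives were no block, a block within each line, no filter, no background correction, median scaling, the deposited log2 values, the mean of a gene's probes, the compared groups alone, and leaving out each array or BeadChip. The fit was tested on simulated data.

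The 38 genes, the further lists and the markers were chosen with earlier results of these data known. Every one of the 38 genes past the threshold was named, with the 2 largest differences per role in the untreated line comparison and each compound comparison. The plan was to name at most 4 further genes per comparison. More were named for the lines over the 4 arms and for cystamine over both lines.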

Additional observations from a re-analysis of the deposited data

How the results depend on the processing

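The 16 called differences of the 38 genes kept their sign under every alternative run on them, in 433 of 433 recomputed values (differences that were not called, and the further genes, were not recomputed one by one), and 3 other scalings (no background correction, median scaling and the deposited log2 values) left the median difference of all genes between -0.07 and 0.06 in every comparison. Counts of called genes among the 38 moved more. Without the replicate block the untreated line comparison went from 2 to 0 called genes and ZDON against Boc-DON over both lines from 1 to 0. Over the whole array the block also mattered, with 153 in place of 318 genes between the untreated lines, 1114 in place of 1683 over the 4 arms, 212 in place of 362 for cystamine over both lines, 97 in place of 274 for Boc-DON and 55 in place of 163 for ZDON. The untreated line comparison gave 1 called gene without the filter, under median scaling and from its own groups alone. Boc-DON over both lines and ZDON against Boc-DON over both lines gave 0 under median scaling and from their own groups alone, and cystamine over both lines gave 1 from its own groups. Under median scaling cystamine gave 3 as before, but only Hk2 was shared, with Dld and Egln1 in place of Slc2a1 and Pfkm. A block within each line gave 1 called gene for cystamine in Q111 (Slc2a1).

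Without BeadChip 1 the counts were 0 between untreated lines, 4 over the 4 arms, and 0 for cystamine, Boc-DON and ZDON against Boc-DON over both lines. Without BeadChip 2 they were 0, 3, 1, 0 and 0 in the same order. Without BeadChip 3 they were 3, 9, 2, 1 and 2, of which 1, 7, 2, 0 and 1 were called with all arrays; Pdk1 between untreated lines and under Boc-DON, P4ha2 and Pfkp over the 4 arms and Slc2a1 under cystamine lost their calls, and cystamine in Q111 gave 1 (Ndrg1). These fits hold fewer arrays. Leaving out each array in turn, the counts ran from 1 to 2 between untreated lines, 6 to 10 over the 4 arms, 2 to 3 for cystamine over both lines, 0 to 1 for cystamine in Q111, for Boc-DON over both lines and for ZDON against Boc-DON over both lines, and stayed at 0 elsewhere. Signal near background limits Adm, Egln3, Aldoc and Car9. The cause of these shifts was not tested.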
